A study of Mus musculus with 6 samples.

Results

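Antisense lncRNAs at genes that carry only a provisional name were examined in spermatogonial stem cells (SSCs), the stem cells of the male germline, and in female germline stem cells (FGSCs) taken from the ovary. A transcript was included when the deposited class code placed its exons on the strand opposite to a known transcript and the name of that known gene was Gm followed by digits, a predicted gene, or ended in Rik, a gene first seen as a Riken cDNA clone. This gave 445 of the 18573 newly assembled lncRNAs, or 445 of the 1551 antisense ones. They lay opposite 262 genes, with 352 transcripts at Gm genes and 93 at Rik genes, and fell into 251 loci.

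SSCs came from testis and FGSCs from ovary of mice that the labels call C57BL/6, and each cell type was sequenced as 3 libraries. The donors of the study carried Ddx4-Cre, in which the recombinase is driven by the promoter of a germ cell gene, together with the mT/mG reporter, from parent lines that the methods do not give as C57BL/6, and GFP-positive cells were sorted from pools of many mice. By the labels the SSC donors were 3 to 5 days old and the FGSC donors 6 days old, and the methods of the study give the ages the other way round. The libraries kept strand through dUTP and were depleted of rRNA, so that RNA with and without a poly(A) tail was read. The table holds lncRNAs alone, and none of 26 marker genes of germ cells, oocytes or gonadal somatic cells has a transcript in it, so that the identity of the cells could not be checked here.

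Antisense transcripts are read from the strand facing a known gene and share no sequence with its RNA other than as its complement. In general such RNAs are known to act on the facing gene, to act elsewhere, or to be by-products of transcription, and a level does not tell these apart. Small nuclear RNAs serve in splicing, small nucleolar RNAs guide the modification of rRNA and snRNA, and microRNAs pair with mRNAs through a seed at bases 2 to 8. Many genes with a Gm name and a small RNA type were placed by similarity to a known small RNA gene, and the genome holds many inactive copies of such genes.

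The unit was FPKM, fragments per kilobase of transcript scaled to the number of mapped fragments, with 1 value for SSCs and 1 for FGSCs. There is no value per library, so no SD, no n and no test over libraries could be computed. The test columns of the authors were not used, and every difference below is a description of 2 pooled values. Differences are log2(FPKM + 0.5) in SSCs minus that in FGSCs, a scale on which low transcripts differ by less than their ratio. A transcript was counted as higher in a cell type when it had at least 0.5 FPKM in SSCs or FGSCs and the difference passed 1 on the log2 scale. Over all lncRNAs that passed the level, 23.2% were higher in SSCs and 31.0% were higher in FGSCs by this rule. That order depended on the scale, and SSCs had the higher share with a pseudocount of 1, at 10.8% against 9.93% in FGSCs. Quantile normalization gave 29.5% higher in SSCs against 23.1% higher in FGSCs, and medians set equal gave 26.1% against 23.6%. The assembled span of a locus can be wider than the transcript in it, exons were not used, and the strand of a transcript was taken as the one opposite to the known transcript. Positions are on mm10 and count from 1.

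The sequences that recur below belong to the small RNA genes assigned to the transcripts with the widest differences in favour of SSCs among those at small RNA genes. Both mature microRNAs are from RefSeq (GRCm38.p6), with the seed in capitals, and the genes are read from the mm10 genome, with the stretch equal to the mature microRNA in capitals. They are shown because 2 transcripts high in SSCs lie at copies of the same microRNA gene, and 1 more lies at a copy of another.
mmu-miR-680: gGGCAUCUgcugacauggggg
Gm22918 (chr10:100139501-100139610, + strand): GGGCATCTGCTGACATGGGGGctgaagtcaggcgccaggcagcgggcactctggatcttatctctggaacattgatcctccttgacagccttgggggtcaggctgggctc
Gm24954 (chrX:89849394-89849503, - strand): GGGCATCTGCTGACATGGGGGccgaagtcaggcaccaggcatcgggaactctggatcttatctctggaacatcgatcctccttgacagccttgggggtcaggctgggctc
Mir680-2 (chrX:144297790-144297899, + strand): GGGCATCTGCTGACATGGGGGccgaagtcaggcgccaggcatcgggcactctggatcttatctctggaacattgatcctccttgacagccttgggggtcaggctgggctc
mmu-miR-6546-5p: aGGCGCCUcugagcuugugcuugu
Gm27844 (chr1:171079840-171079901, - strand): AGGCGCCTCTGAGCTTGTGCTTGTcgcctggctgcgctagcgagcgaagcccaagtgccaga
Mir6546 (chr1:171064591-171064652, - strand): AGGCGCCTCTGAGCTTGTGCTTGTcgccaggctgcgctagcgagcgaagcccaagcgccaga

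Taken as a whole, these antisense transcripts had higher medians than all newly assembled lncRNAs together. Against the other antisense lncRNAs only the SSC median was higher. The balance of these transcripts between the cell types rested on a single locus. The median was 0.730 FPKM in SSCs against 0.521 FPKM in FGSCs, beside 0.251 and 0.442 FPKM over all 18573 transcripts. Of the 368 that passed the level, 121 (32.9%) were higher in SSCs and 77 (20.9%) in FGSCs, and the median difference was 0.17, against -0.42 over all transcripts that passed. Of these, 44 lie at 1 locus on chromosome 2 opposite Gm26883, and all 44 were higher in SSCs. Without that locus 77 were higher in SSCs and 77 in FGSCs, 23.8% each of 324, and the median difference turned to -0.14. The median levels without it were 0.624 FPKM in SSCs against 0.564 FPKM in FGSCs. The other 1106 antisense lncRNAs gave 138 (17.3%) higher in SSCs and 218 (27.3%) higher in FGSCs of 799, with a median difference of -0.27. Their median levels were 0.420 FPKM in SSCs against 0.539 FPKM in FGSCs. That FGSC value lies above the 0.521 FPKM given first and below the 0.564 FPKM without the Gm26883 locus. With pooled cells, fewer cells of a kind and less RNA per cell cannot be told apart in any of these values. No transcript was listed at 0 in both cell types, while 39 were listed at 0 in SSCs and 28 in FGSCs.

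**Figure D1:**
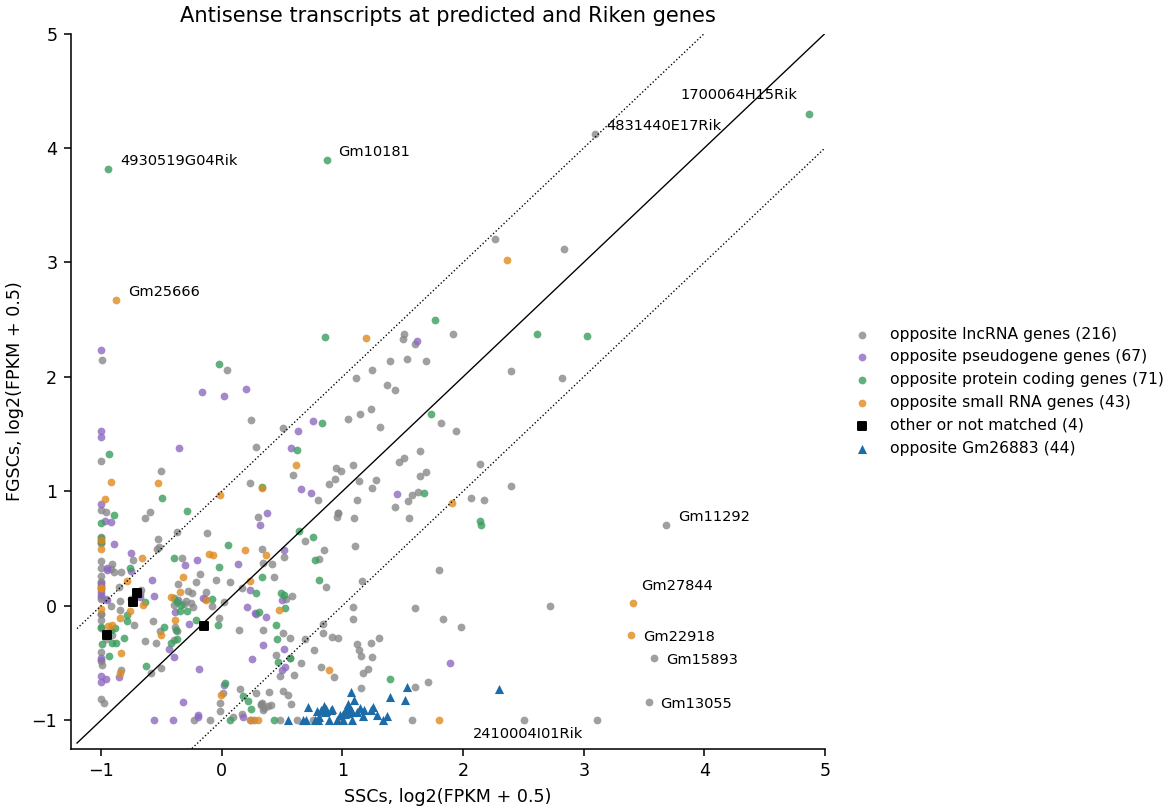
Level of each of the 445 antisense transcripts in SSCs (horizontal) and in FGSCs (vertical), both as log2(FPKM + 0.5), coloured by the kind of gene on the other strand. The dotted lines mark a difference of 1 on the log2 scale, and the 44 transcripts opposite Gm26883 (triangles) form a band at 0.965 to 4.42 FPKM in SSCs and 0 to 0.111 FPKM in FGSCs.

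The kind of gene on the other strand was taken from GENCODE M21, which held the reference transcript of 442 of the 445. Most faced a lncRNA gene (260), and 71 faced a protein-coding gene, 67 a pseudogene and 43 a small RNA gene. For 2 of the 43 the gene lies away from the locus. Opposite lncRNA genes, 101 of 229 (44.1%) were higher in SSCs and 35 (15.3%) in FGSCs. Without the Gm26883 locus these counts were 57 (30.8%) and 35 (18.9%) of 185. Of the 57, 12 lie at the Gm26835 locus and 9 at that of Gm26936 and Gm26979, and neither locus had any higher in FGSCs. Opposite pseudogenes the order was the other way, as it was over all transcripts by the same rule (23.2% and 31.0%). Of 52 there, 5 (9.62%) were higher in SSCs and 19 (36.5%) in FGSCs, with a median difference of -0.66. Opposite protein-coding genes, 8 of 52 (15.4%) were higher in SSCs and 12 (23.1%) in FGSCs. Opposite small RNA genes, 7 of 33 (21.2%) were higher in SSCs and 11 (33.3%) in FGSCs, shares close to those over all transcripts. Members of 1 locus share their surroundings and may share reads, so these counts are not counts of separate genes.

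**Figure D2:**
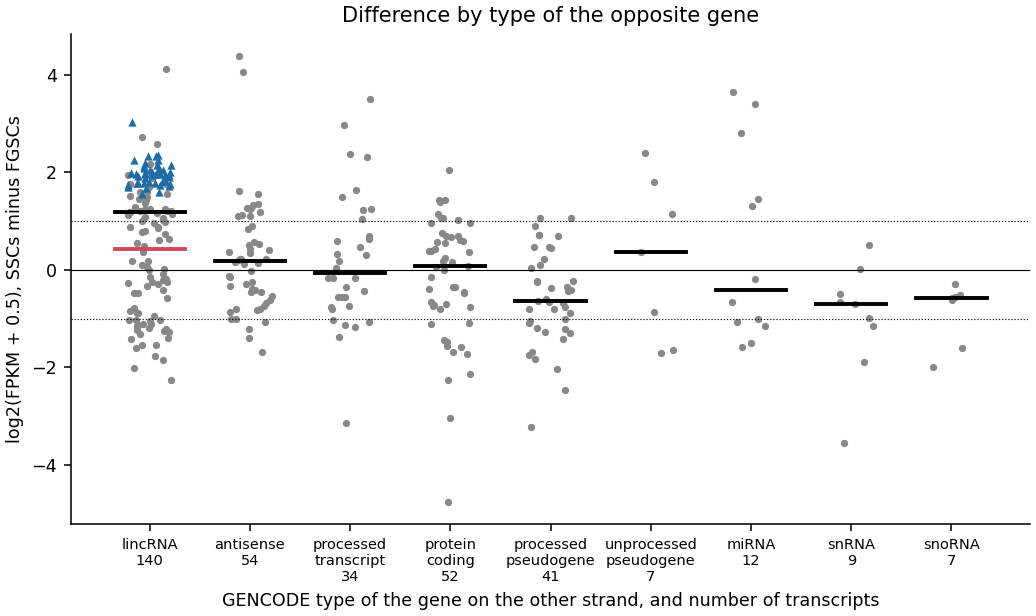
Difference between SSCs and FGSCs on the log2(FPKM + 0.5) scale for each antisense transcript with at least 0.5 FPKM in a cell type, by GENCODE type of the opposite gene, for the 9 types with 7 or more such transcripts. Black bars are medians, the red bar is the lincRNA median without the Gm26883 locus (triangles), and among these types the medians run from 1.19 opposite lincRNA genes to -0.69 opposite snRNA genes.

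A transcript antisense to a predicted or Riken gene can still lie on the strand of a protein-coding gene at the same locus. Loci that overlap a protein-coding gene held 297 of the 445 transcripts, and 213 were inferred to be on the strand of such a gene. Those 213 had medians of 1.39 FPKM in SSCs against 0.577 FPKM in FGSCs, and 79 of the 194 that passed the level (40.7%) were higher in SSCs and 26 (13.4%) in FGSCs. Without the Gm26883 locus, which lies over Tshz2, the medians of the remaining 169 were 1.25 FPKM in SSCs against 0.868 FPKM in FGSCs. Of the 150 of them that passed the level, 35 (23.3%) were higher in SSCs and 26 (17.3%) in FGSCs. Of the 35, 12 lie at the Gm26835 locus, where none was higher in FGSCs. The 84 at coding genes on the other strand only had medians of 0.376 FPKM in SSCs against 0.466 FPKM in FGSCs. Of these, 61 passed the level, with 14 (23.0%) higher in SSCs and 14 in FGSCs. The 148 transcripts at loci with no protein-coding gene had medians of 0.319 FPKM in SSCs against 0.510 FPKM in FGSCs, with 28 of 113 (24.8%) higher in SSCs and 37 (32.7%) higher in FGSCs. By the same rule, 23.2% of all transcripts that passed were higher in SSCs and 31.0% in FGSCs. Whether reads of unspliced RNA of the coding gene contribute to the values of the 213 was not tested.

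Small RNA genes, 41 in all, were assigned to 43 of the transcripts. For 2 of these, assigned to Gm24954 and Gm23438, GENCODE M21 places the gene away from the locus, and both are counted below with the microRNA genes. Without them, 6 of the transcripts at small RNA genes were higher in SSCs and 10 in FGSCs. By the type of the gene, 15 transcripts faced microRNA genes, 10 snRNA, 9 snoRNA, 5 other small RNA and 3 rRNA genes, and 1 faced a small Cajal body RNA gene. The measured RNA is the long transcript on the other strand or its assembled locus, not the small RNA itself. Opposite genes typed as microRNA, 5 of the 12 that passed the level were higher in SSCs and 5 in FGSCs. The shares over all transcripts that passed were 23.2% and 31.0%. All 9 antisense transcripts at snoRNA genes and 8 of the 10 at snRNA genes had the lower value in SSCs, as did 64.0% of all 18573 transcripts. By BLAST, 31 of the 43 faced a gene similar to a small RNA gene with a proper name, and the 12 without such a match all had a lower value in SSCs than in FGSCs, beside the same 64.0% over all transcripts, and their sums were 9.50 FPKM in SSCs against 20.2 FPKM in FGSCs.

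The transcript opposite Gm22918 (TCONS_00017876) had 10.004 FPKM in SSCs against 0.335 FPKM in FGSCs, a log2 difference of 3.65. Its locus spans 5074 bases on chromosome 10 from 100139439 to 100144512, and no protein-coding gene overlaps it. Gm22918 is 98.2% identical to Mir680-2 over 110 bases, and the first 21 bases equal miR-680, as printed above. The same 110 bases occur without a change a second time in the locus: the copies lie at bases 63 to 172 and 4816 to 4925, close to both ends, and the second copy is the annotated gene Gm25287. Elements bounded by long terminal repeats have such a layout in general. Whether this locus is one was not tested, and 80.0% of it is marked as repeat in the genome sequence.

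The transcript assigned to Gm24954 (TCONS_00092082) had 2.98 FPKM in SSCs and was listed at 0 in FGSCs. Its locus is only 227 bases long, the shortest among the 445, and lies on chromosome 3, whereas GENCODE M21 places Gm24954 itself on chromosome X. The locus holds a further copy of the same stretch, 97.3% identical to Gm22918 over 110 bases and 94.5% identical to Gm24954, and 97.4% of it is marked as repeat. It is printed in the direction of that copy, with the bases equal to miR-680 in capitals.
Locus assigned to Gm24954 (chr3:6343381-6343607, - strand): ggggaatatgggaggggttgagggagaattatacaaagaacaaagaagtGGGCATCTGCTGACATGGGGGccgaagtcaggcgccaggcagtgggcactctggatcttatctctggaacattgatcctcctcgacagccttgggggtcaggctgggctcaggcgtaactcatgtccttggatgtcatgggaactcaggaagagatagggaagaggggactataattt
Among the 12975 loci of up to 10 kb in the whole table, 3 held a copy of at least 90% identity over at least 100 bases. The third is intergenic, on chromosome 15 (TCONS_00049957), with 0.643 FPKM in SSCs and listed at 0 in FGSCs. Its log2 difference was 1.19. The other two are the loci above, whose values prompted the search, so that only the third adds a value, beside 24.9% higher in SSCs among transcripts at loci of up to 10 kb. Copies this alike share reads, so the levels of the separate loci are uncertain, and how the authors' mapping placed such reads was not tested.

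The transcript opposite Gm27844 (TCONS_00004818) had 10.1 FPKM in SSCs against 0.514 FPKM in FGSCs, a log2 difference of 3.39. Gm27844 is 96.8% identical to Mir6546 over all 62 bases and holds the whole of miR-6546-5p without a mismatch. Mir6546 lies on the same chromosome, and whether such copies share reads was not tested. The locus spans 7927 bases on chromosome 1 from 171074300 to 171082226 and also holds 6 tRNA genes, n-TGgcc13, n-TEctc7, n-TGtcc4, n-TDgtc6, n-TLcag8 and n-TGgcc14. Within 100 kb of this locus 6 other transcripts passed the level, and 5 of them were higher in SSCs past the fold and none in FGSCs. Over all transcripts the shares were 23.2% and 31.0%. The locus was named for its own high value in SSCs. Near Gm22918, 4 neighbours within 100 kb passed the level, and all 4 were higher in SSCs past the fold. Counts near Gm11292 and 4930586N03Rik are given below, and 1700064H15Rik had no neighbour. Neighbours of other loci were not counted.

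Opposite snRNA genes the widest difference went the other way. The transcript opposite Gm25666 (TCONS_00112381) had 0.0459 FPKM in SSCs against 5.86 FPKM in FGSCs, a log2 difference of -3.54. Its locus, on chromosome 5 from 30485583 to 30545836, overlaps Cib4, a gene of the calcium and integrin binding family that lies on the strand opposite to the transcript. The transcript opposite Gm26001 (TCONS_00110328) had 0.0123 FPKM in SSCs against 1.41 FPKM in FGSCs.

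The other small RNA genes with an antisense transcript above 1 FPKM spread between these ends. Opposite Gm26393, an snRNA gene at the locus of the chromatin gene Morc2a, the transcript, which is on the strand of Morc2a, had 4.65 FPKM in SSCs against 7.61 FPKM in FGSCs. Opposite Gm22121, a microRNA gene at the locus of Ublcp1, a phosphatase of the proteasome, it had 1.79 FPKM in SSCs against 4.56 FPKM in FGSCs, a log2 difference of -1.14. Opposite the snRNA gene Gm23827 it had 0.489 FPKM in SSCs against 1.46 FPKM in FGSCs, and opposite the snRNA gene Gm25444 it had 0.762 FPKM in SSCs against 1.54 FPKM in FGSCs. None of these 4 genes matched a small RNA gene with a proper name. Opposite Gm25219, which resembles Rn7sk, the 7SK RNA that restrains transcription elongation, it had 3.26 FPKM in SSCs against 1.36 FPKM in FGSCs, a log2 difference of 1.02. Opposite Gm24730, which resembles the snoRNA gene Snora17 at 77.1%, it had 1.03 FPKM in SSCs against 1.85 FPKM in FGSCs. Opposite Gm25418, which resembles it at 79.2%, the values were 0.194 FPKM in SSCs against 1.61 FPKM in FGSCs, a log2 difference of -1.60. Opposite Gm22053, 89.7% identical to Snora73a over 185 bases, it had 0.0282 FPKM in SSCs against 1.62 FPKM in FGSCs. Of these transcripts, those at Gm22121, Gm25418 and Gm22053 were higher in FGSCs past the fold and that at Gm25219 was higher in SSCs. The first transcript opposite Gm27501, 92.5% identical to Mir8117, had 1.35 FPKM in SSCs against 0.179 FPKM in FGSCs.

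tRNA genes lay inside 4 of the loci, 11 genes in all, on the strand of the antisense transcript in 5 cases and opposite to it in 6. All 4 transcripts were above 1 FPKM in SSCs and 3 were above 1 FPKM in FGSCs. Transfer RNA genes are read by RNA polymerase III from a promoter inside the gene, of which the B box is a part. The B box letters GGTTCGA, searched on the strand of each tRNA gene, were in 10 of the 11 and in 59.6% of the 403 tRNA genes that RefSeq places on the chromosomes. A gene from the locus opposite Gm11292 and a gene from the locus with the most abundant transcript are printed as examples, with the anticodon in capitals.
n-TTagt1, threonine (chr13:22030100-22030173, - strand): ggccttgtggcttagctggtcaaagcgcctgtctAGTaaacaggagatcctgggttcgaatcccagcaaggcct
n-TRacg3, arginine (chr3:19627959-19628031, - strand): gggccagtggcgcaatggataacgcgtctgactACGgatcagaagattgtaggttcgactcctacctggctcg

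The transcript opposite Gm11292 (TCONS_00040577) had 12.3 FPKM in SSCs against 1.13 FPKM in FGSCs, a log2 difference of 2.97. Its locus covers 5740 bases on chromosome 13 from 22026699 to 22032438, and n-TTagt1 begins 3401 bases into it. It is the only one of the 445 within 10 kb of a gene of the histone clusters: Hist1h2ah, a gene for histone H2A, lies 2726 bases away. No histone gene overlapped any of the loci. Within 100 kb of the locus 7 intergenic transcripts were assembled, of which 6 passed the level. Past the fold, 5 of those 6 were higher in SSCs, beside 23.2% over all transcripts. Taken separately over the 6, the highest value was 84.5 FPKM in SSCs and the highest was 5.45 FPKM in FGSCs.

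In the same histone gene region of chromosome 13, the transcript opposite 4930586N03Rik (TCONS_00040633) had 2.53 FPKM in SSCs against 4.38 FPKM in FGSCs. Its locus, which overlaps the zinc finger gene Zfp322a, holds the methionine tRNA gene n-TMcat12 and lies 145251 bases from Hist1h4h. Its log2 difference of -0.69 had the opposite sign to that at Gm11292. Of the 6 neighbours within 100 kb that passed the level, 4 were higher in SSCs past the fold, beside 23.2% over all transcripts. The most abundant of all 445 lay opposite 1700064H15Rik (TCONS_00092250), with 28.6 FPKM in SSCs against 19.1 FPKM in FGSCs. Its locus on chromosome 3, from 19508595 to 19628677, overlaps Dnajc5b, a gene of the cysteine string protein family, and holds n-TRacg3 near its far end. Its log2 difference of 0.57 turned to -0.41 after quantile normalization of SSC and FGSC values.

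**Figure D3:**
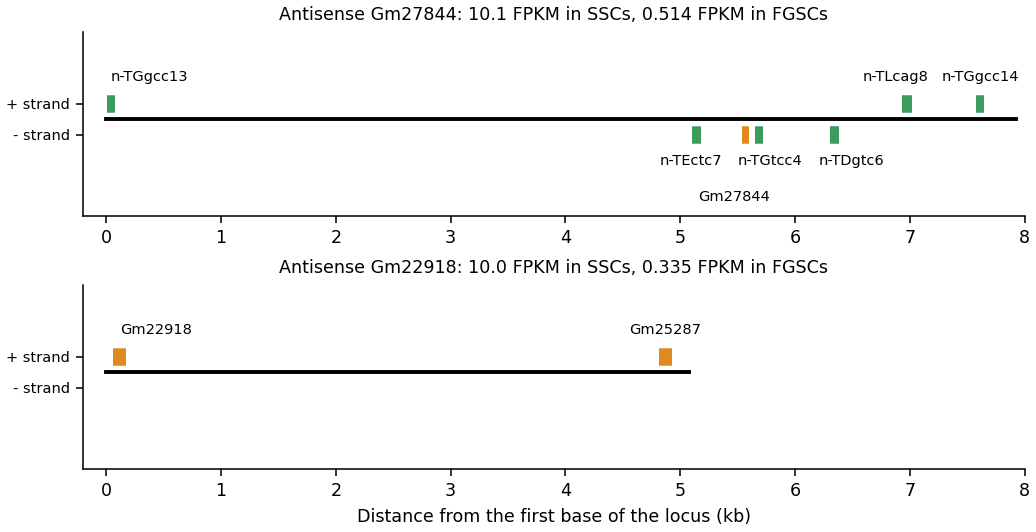
Maps of the loci of the antisense transcripts opposite Gm27844 and Gm22918, in kb from the first base of the locus (black line). tRNA genes (green) and microRNA genes by type (orange) are drawn above the line when on the + strand and below it when on the - strand. The transcripts had 10.1 and 10.004 FPKM in SSCs against 0.514 and 0.335 FPKM in FGSCs, and the locus of Gm22918 has its 2 equal copies near its ends.

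Opposite lncRNA genes, the widest differences in favour of SSCs were at Gm13055, 2410004I01Rik and Gm15893. The transcript at Gm13055 (TCONS_00104801), within 4557 bases on chromosome 4 from 141261460 to 141266016 that hold no protein-coding gene, had 11.1 FPKM in SSCs against 0.0568 FPKM in FGSCs, a log2 difference of 4.38. At Gm15893 (TCONS_00029078) it had 11.5 FPKM in SSCs against 0.227 FPKM in FGSCs, a log2 difference of 4.05. That locus, on chromosome 11 from 88339382 to 88718513, covers Msi2, which codes for the RNA-binding protein Musashi 2. GENCODE types Gm15893 as an antisense gene itself, on the + strand, and Msi2 lies on the - strand, which is also the strand inferred for the transcript facing Gm15893.

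The transcript opposite 2410004I01Rik (TCONS_00023776) had 8.14 FPKM in SSCs and was listed at 0 in FGSCs. It shares a locus on chromosome 11 with 10 protein-coding genes, among them Eftud2 of the spliceosome and Gfap of astrocytes. The locus also holds transcripts opposite Gm26668, and its 5 members summed to 18.4 FPKM in SSCs against 1.91 FPKM in FGSCs, each with the higher value in SSCs. At Gm27230 (TCONS_00157622), at the locus of the zinc finger gene Zfp280d, 5.18 FPKM in SSCs stood beside a value listed at 0 in FGSCs.

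The lncRNA genes with the widest differences in favour of FGSCs were A530072M11Rik and Gm13974. Opposite A530072M11Rik (TCONS_00106151), on chromosome 4 from 16164110 to 16266225, the transcript had 0.00246 FPKM in SSCs against 3.93 FPKM in FGSCs, a log2 difference of -3.14. Opposite Gm13974 (TCONS_00088706) it was listed at 0 in SSCs and had 1.91 FPKM in FGSCs. No protein-coding gene overlaps these loci. High levels in both cell types were measured at 4831440E17Rik, with 8.02 FPKM in SSCs against 16.9 FPKM in FGSCs, and at Gm26804, with 4.30 FPKM in SSCs against 8.73 FPKM in FGSCs. Their log2 differences were -1.03 and -0.94.

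Several lncRNA genes faced many transcripts. There were 50 loci with at least 2 members that passed the level, at genes of any type. Of these, 20 had every member higher in SSCs by any amount, 22 had every member higher in FGSCs, and 8 were mixed. Many of the 50 have only 2 members, and no such count was made for other loci with several transcripts, so these numbers have no reference. At the Gm26883 locus, from 169633013 to 170071816 on chromosome 2 over the zinc finger gene Tshz2, the 44 members ranged from 0.965 to 4.42 FPKM in SSCs and from 0 to 0.111 FPKM in FGSCs, and the most abundant was TCONS_00083550 with a log2 difference of 3.03. Opposite Gm26835 on chromosome 10, at the locus and on the strand of Hivep2, a zinc finger transcription factor gene, 12 members summed to 21.2 FPKM in SSCs against 2.74 FPKM in FGSCs, and all 12 were higher in SSCs past the fold. Opposite Gm26936 and Gm26979 on chromosome 1, 11 members summed to 8.32 FPKM in SSCs against 0.423 FPKM in FGSCs, with 9 past the fold.

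The locus with the next highest number of members was mixed. It spans 1360031 bases on chromosome 4, from 146153456 to 147513486, and overlaps 11 protein-coding genes, mostly a cluster of zinc finger genes such as Zfp600 and Zfp981. Its 19 members faced C230088H06Rik, Gm26573 and Gm26624 and summed to 10.6 FPKM in SSCs against 18.5 FPKM in FGSCs. Of the 19, 1 was higher in SSCs past the fold and 6 were higher in FGSCs. The genes of this cluster are close copies of each other, so reads may be shared between them and the split over its transcripts is uncertain.

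**Figure D4:**
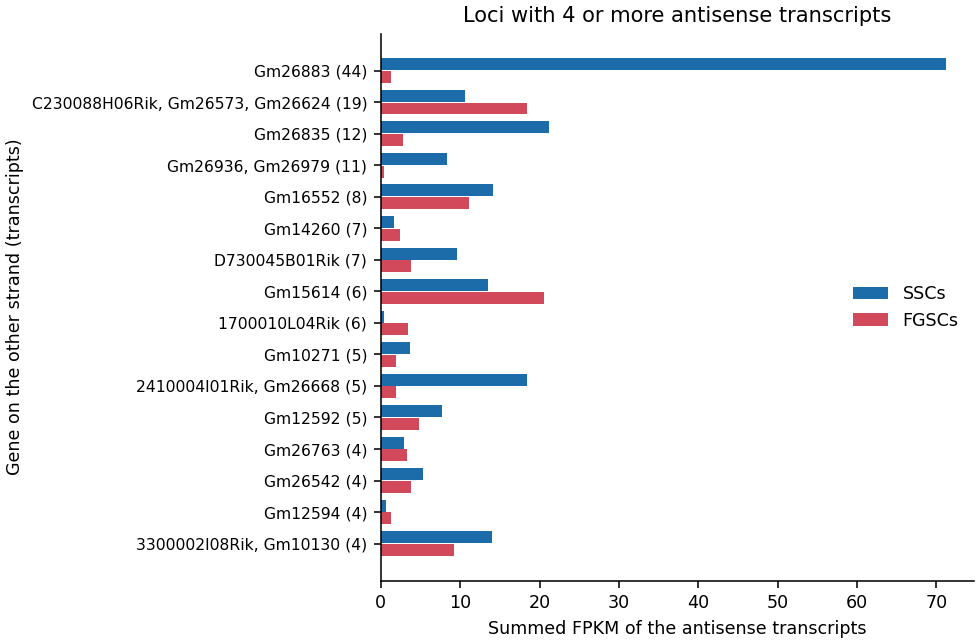
Summed FPKM in SSCs (blue) and FGSCs (red) of the antisense transcripts at each locus with 4 or more of them, with the number of transcripts in brackets. The Gm26883 locus had 71.2 FPKM in SSCs against 1.30 FPKM in FGSCs, and the loci of Gm15614 and C230088H06Rik were among those with the larger sum in FGSCs.

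Pseudogenes are copies of genes that have mostly lost the ability to make the protein, and processed ones arose from a spliced mRNA. Opposite processed pseudogenes, 2 of 41 (4.88%) were higher in SSCs and 14 (34.1%) in FGSCs, beside 23.2% and 31.0% over all transcripts. The transcript at Gm15544 (TCONS_00141046), on chromosome 7 from 80429210 to 80431186, was listed at 0 in SSCs and had 4.20 FPKM in FGSCs. At Gm14046 on chromosome 2 it was listed at 0 in SSCs and had 2.28 FPKM in FGSCs. At Gm8935 on chromosome 3 both transcripts were listed at 0 in SSCs, and the more abundant had 2.38 FPKM in FGSCs. The opposite was measured at Gm20391, an unprocessed pseudogene on chromosome 17, where a transcript of a 385-base locus had 3.21 FPKM in SSCs against 0.207 FPKM in FGSCs. Pseudogenes resemble the genes they came from, so reads may be shared with those genes, and the part of this in the values was not tested.

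Among the genes typed as protein-coding, the widest difference of all 445 in favour of FGSCs was at 4930519G04Rik. Its antisense transcript (TCONS_00120262), within chromosome 5 from 114853664 to 114883659, reached 0.0206 FPKM in SSCs against 13.6 FPKM in FGSCs, a log2 difference of -4.76. At Gm10181 (TCONS_00155774), on chromosome 9 from 25060699 to 25098922, the values were 1.33 FPKM in SSCs against 14.4 FPKM in FGSCs, a log2 difference of -3.03. In the other direction, the transcript at Gm11146 on chromosome 16 had 2.14 FPKM in SSCs against 0.140 FPKM in FGSCs. Of the genes with a transcript here, 16 carry another name in GENCODE M21. For one of them, Gm6310, now the pseudogene Rhox2-ps, the antisense transcripts had 0.0120 and 0.0285 FPKM in SSCs against 1.17 and 1.16 FPKM in FGSCs.

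Of the 24 transcripts with at least 2 FPKM in SSCs and in FGSCs, the closest levels were at 3300002I08Rik, with 2.82 FPKM in SSCs against 2.69 FPKM in FGSCs. At Gm15614, over the phosphatase gene Ppp1cb and the kinase gene Yes1, TCONS_00112688 had 3.03 FPKM in SSCs against 2.52 FPKM in FGSCs. At 4930595D18Rik, beside the signalling gene Traf3, it had 5.60 FPKM in SSCs against 4.70 FPKM in FGSCs. The transcript at Gm26518, over the RNA-binding protein gene Pcbp2, had 6.62 FPKM in SSCs against 8.20 FPKM in FGSCs, and that at Gm12743, over the replication gene Orc1, had 2.62 FPKM in SSCs against 2.05 FPKM in FGSCs. Their log2 differences lay between -0.29 and 0.29, and those of 3300002I08Rik and 4930595D18Rik changed sign after quantile normalization.

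**Figure D5:**
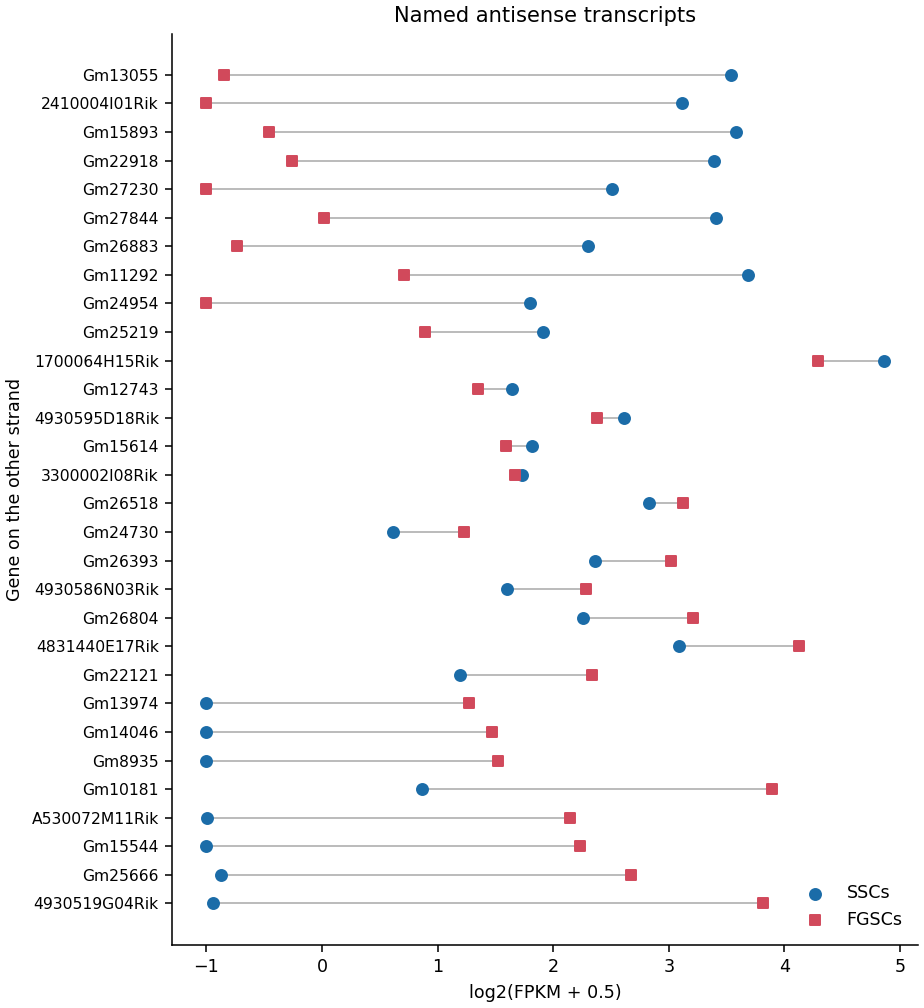
Levels of the 30 named antisense transcripts in SSCs (circles) and FGSCs (squares) on the log2(FPKM + 0.5) scale, ordered by the difference between them. A value of -1 is a transcript listed at 0, and the widest gaps are at Gm13055 at the top and 4930519G04Rik at the bottom.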

How the data were processed

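The authors sequenced strand-specific, rRNA-depleted libraries, 3 per cell type, mapped reads to mm10, assembled transcripts, and deposited FPKM values, 1 per transcript for SSCs and 1 for FGSCs. TopHat2, Cufflinks and Cuffdiff 2.1.1 are the tools listed in the submitters' processing notes. The deposited table also holds the authors' fold changes, test statistics, p-values and q-values, which were not used. Read depth per transcript is unknown, so no interval was given.

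Differences used a pseudocount of 0.5 FPKM and a minimum of 0.5 FPKM in 1 cell type, and the functions were tested on simulated data. The planned linear model over libraries was not run, since the table holds 1 value per cell type. Named transcripts were the 5 highest in each cell type, the 8 largest differences in each direction at 1 FPKM or more, the 5 smallest differences at 2 FPKM or more in both, up to 8 each at small RNA, tRNA or histone genes, loci with 3 or more members, at most 4, and any opposite 3 genes that the study names, of which none had a member; those at Gm26001, Gm22053, Gm25418, Gm23827, Gm25444, Gm27501, Gm20391, Gm11146, Gm6310, Gm26668 and in the closing section were picked with their values in view. The members and lists were chosen with earlier results of these data known. Opposite gene types came from GENCODE M21 and tRNA genes from RefSeq on the same assembly (GRCm38). Of the reference transcripts, 440 lay at the locus, 2 lay elsewhere and 3 were not matched. The sequences of some small RNA and tRNA genes are not reported here. Similarity was searched with BLAST 2.17.0. Tools were pysam 0.24.0, matplotlib 3.10.9, NumPy 2.4.6 and pandas 2.3.3 under Python 3.11.15. Alternatives changed the pseudocount, filter, scaling and choice of transcripts.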

Additional observations from a re-analysis of the deposited data

How the results depend on the processing

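Each value rests on 1 pooled FPKM per cell type, with unknown read depth, so that replicate error cannot be given. No paired analysis was possible because the table holds 1 value per cell type, and for the same reason no replicate could be left out. Of 60 recomputed counts and medians, 39 stayed within 1.5 times (counts) or 0.1 (medians), 18 moved further and 3 changed sign.

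The main counts were 121 higher in SSCs and 77 higher in FGSCs, with a median difference of 0.17, and 7, 11 and -0.58 for the transcripts opposite small RNA genes. The median over all members turned to -0.086 with no filter on low values, and, in alternatives chosen after seeing the data, to -0.14 without the Gm26883 locus and to -0.31 with 1 transcript per locus. The count higher in SSCs fell to 77 without that locus and to 43 with 1 transcript per locus. A pseudocount of 1 gave 79 higher in SSCs and 31 higher in FGSCs, and 3 and 4 opposite small RNA genes with a median of -0.39. A pseudocount of 0.1 gave -0.87 for that median. A minimum of 1 FPKM gave 39 higher in FGSCs and a median of 0.55, and 5 higher in FGSCs opposite small RNA genes. Only transcripts above 0 in both cell types gave 49 higher in FGSCs, and 4 and 7 opposite small RNA genes. With equal median levels, which removes a shift of -0.12, the medians were 0.29 and -0.46, and after quantile normalization 0.29 and -0.44. The smaller sets tested under a stricter filter lower the counts by construction, and the cause of the other changes was not tested. The log2 limit of 1 was crossed by Gm26804, at -1.01 with a pseudocount of 0.1 and -1.34 after quantile normalization, and by Gm26393, at -1.07 after quantile normalization. It was no longer reached with a pseudocount of 1 by 4831440E17Rik at -0.99, Gm22121 at -0.995 and Gm25219 at 0.85, with equal medians by 4831440E17Rik at -0.92, and after quantile normalization by Gm25219 at 0.89.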

Other observations

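At 15 of the genes the table also holds newly assembled transcripts on the strand of the gene, 20 in all. At 7 of the 15 the summed transcripts of both strands had the same sign of the difference between SSCs and FGSCs. At Gm9917 the strands had like levels: the antisense transcript had 6.55 FPKM in SSCs against 3.47 FPKM in FGSCs, and the sense transcript 6.86 FPKM in SSCs against 4.16 FPKM in FGSCs. At B230319C09Rik, a gene at the locus of Tet3, an enzyme that oxidizes methylated cytosine, the 3 antisense transcripts summed to 6.95 FPKM in SSCs against 11.1 FPKM in FGSCs, and the sense transcript had 1.14 FPKM in SSCs against 0.848 FPKM in FGSCs. At Gm5091 the sense strand was the more abundant, with 3.34 FPKM in SSCs against 3.06 FPKM in FGSCs over 5 transcripts, beside 0.313 FPKM in SSCs against 0.528 FPKM in FGSCs for the antisense transcript.

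On the X chromosome 16 of the transcripts were found, and 12 of them had the lower value in SSCs, beside 64.0% of all transcripts. Of the 14 that passed the level, none was higher in SSCs past the fold and 5 (35.7%) were higher in FGSCs. Over all transcripts these shares were 23.2% and 31.0%. The most abundant of the 14, opposite the pseudogene Gm7091, had 1.05 FPKM in SSCs against 2.39 FPKM in FGSCs. Chromosome 2 held 91 transcripts at 32 loci, and chromosome 15 held 2. The share of bases marked as repeat, introns included, had a median of 27.9% over the 251 loci. It was 23.4% over the 680 loci of the other antisense lncRNAs. Some loci are in both sets, since all antisense lncRNAs together fall into 919. The most repetitive of the 251, at 99.2%, was the 787-base locus opposite Gm10800 on chromosome 2, with 0.485 FPKM in SSCs against 3.81 FPKM in FGSCs.

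Transcripts opposite Rik and Gm genes were also counted apart, with no test of the difference. Opposite Rik genes, 11 of 73 transcripts (15.1%) were higher in SSCs and 22 (30.1%) in FGSCs. Opposite Gm genes without the Gm26883 locus, 66 of 251 (26.3%) were higher in SSCs and 55 (21.9%) in FGSCs. Of these 66, 12 lie at the Gm26835 locus and 9 at that of Gm26936 and Gm26979. At neither locus was any transcript higher in FGSCs past the fold, so the order of these shares rests on few loci. The shares were 23.2% and 31.0% over all transcripts, and 17.3% and 27.3% over the other antisense lncRNAs. Those opposite Rik genes were thus near the shares of the other antisense lncRNAs.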
